A study of Mus musculus with 32 samples.

Results

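The sites described here are 4319 places of the mouse genome that bound DMC1 in the testes of B6 mice and carried H3K4me3 found in B6 and not in RJ2 mice, while no peak of the deposited B6 PRDM9 list lay over them. They were chosen by 3 measured values, the intervals of the DMC1, H3K4me3 and PRDM9 peak lists. The central 400 bp of a DMC1 interval had to overlap, by at least 1 bp, an interval of the B6-specific H3K4me3 list, and none of the H3K4me3 list common to both strains or of the B6 PRDM9 list. They made up 29.2% of the 14774 B6 DMC1 sites (95% Clopper-Pearson interval 28.50 to 29.97), and are called member sites below.

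The other B6 DMC1 sites fell into 5 groups by the same rule. There were 1648 sites with B6-specific H3K4me3 and a B6 PRDM9 peak (11.2%), called PRDM9-positive, and 8115 sites with neither H3K4me3 nor PRDM9 (54.9%), called unmarked. Common H3K4me3 lay at 483 sites without PRDM9 and 74 sites with it, and 135 sites had PRDM9 alone. Member sites were thus 72.4% of the 5967 DMC1 sites with B6-specific and no common H3K4me3 (71.2 to 73.5).

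The study compared peaks of chromatin immunoprecipitation sequencing (ChIP-seq) between mice that differ in Prdm9 or lack Prdm9 or Spo11. PRDM9 was mapped in whole testes of mice aged 13 days: Spo11KO mice (Spo11tm1M, with the Prdm9 allele of B6, called Dom2; 2 libraries), Prdm9KO mice (B6;129P2-Prdm9tm1Ymat/J; 1 library), RJ2 mice (B10.MOLSGR(A)-(D17Mit58-D17Jcs11)/Bdm, with the Prdm9 allele called Cst; 2 libraries) and B6 mice (C57BL/6JOlaHsd; 2 libraries). DMC1 was mapped in whole testes of RJ2 and B6 mice aged 5 weeks (2 libraries each), and H3K4me3 in adult testis cells enriched for the pachytene stage by elutriation (1 library each). The background of RJ2 mice, C57BL/10, is nearly the same as that of B6 mice. PRDM9 chromatin was pooled from several mice, and whole testes hold many cell types and stages beside the cells in which PRDM9 is made. The lists give positions only, pooled over replicates and with no read count, so each interval printed below covers the counting of sites and not the spread between mice.

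PRDM9 is a histone methyltransferase of early meiotic prophase whose zinc fingers bind a DNA motif that differs between alleles. It trimethylates lysine 4 of histone H3 on the nucleosomes beside its motif, and SPO11 then cuts the DNA at some of these places. The ends of the break are resected to single strands, which are coated by the strand-exchange protein DMC1, so that a DMC1 peak marks a break and PRDM9-dependent H3K4me3 marks the step before it.

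A matrix of the Dom2 motif was learned from the B6 PRDM9 peaks that lie over DMC1 centres (1857 peaks), none of which lies over a member site. Its consensus of 19 bp was ANANGGCAGCAGCANCTGG, or CCAGNTGCTGCTGCCNTNT on the other strand, where N stands for no letter above 40%. Both strands were searched, and a site was called matched when its best score in the central 400 bp passed the score reached by 5% of the same sites moved 10 kb to each side. The 5 member sites with the best scores are shown first, because their letters come closest to the motif although no B6 PRDM9 peak lay over them. Each run is mm9 sequence, 5′ to 3′ on the strand of the motif, with the best-scoring 19 bp in capitals.
Runx1 intron, chr16:92704946-92705024: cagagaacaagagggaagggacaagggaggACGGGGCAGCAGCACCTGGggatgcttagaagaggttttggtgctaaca
Intergenic near Efr3a, chr15:65441827-65441905: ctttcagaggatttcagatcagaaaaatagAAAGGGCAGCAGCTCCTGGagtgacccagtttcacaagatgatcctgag
Intergenic near Aldh1a3, chr7:73596862-73596940: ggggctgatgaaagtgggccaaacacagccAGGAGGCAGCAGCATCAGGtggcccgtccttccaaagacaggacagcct
Cacna1a intron, minus strand, chr8:87127419-87127497: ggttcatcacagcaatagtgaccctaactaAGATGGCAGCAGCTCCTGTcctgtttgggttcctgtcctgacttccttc
Intergenic near Atp1b4, chrX:35668210-35668288: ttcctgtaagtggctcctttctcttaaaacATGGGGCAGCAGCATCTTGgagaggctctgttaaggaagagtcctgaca

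Intergenic sites are named here and below by the protein-coding gene with the nearest transcription start, which can be far away. It lay at 176797 bp for Efr3a, 24426 bp for Aldh1a3 and 1131 bp for Atp1b4. The 5 sequences share GGCAGCAGC and differ mainly at its sides. Their matrix scores were 23.8, 23.7, 22.7, 22.5 and 22.3 bits in the order printed. The median over all member sites was 13.0 bits, with a lowest score of -21.2 and a highest of 23.8. None of the 5 had a PRDM9 peak in Spo11KO mice either. Their H3K4me3 intervals were 491, 1137, 549, 690 and 398 bp wide, of which only the interval near Efr3a was wider than the median of member sites (853 bp).

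The next 4 member sites are among the 5 with the widest PRDM9 peak in Spo11KO mice, a measurement that the choice of sites did not use.
Herc2 intron, minus strand, chr7:63369438-63369516: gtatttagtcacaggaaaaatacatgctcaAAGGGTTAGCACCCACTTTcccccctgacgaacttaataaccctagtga
Intergenic near Ctsm, chr13:61553888-61553966: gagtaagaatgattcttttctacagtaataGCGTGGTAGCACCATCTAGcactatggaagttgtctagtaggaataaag
Fbxw11 intron, chr11:32618452-32618530: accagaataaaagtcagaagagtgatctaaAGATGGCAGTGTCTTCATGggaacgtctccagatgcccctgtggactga
Intergenic near Sh3gl3, chr7:89266809-89266887: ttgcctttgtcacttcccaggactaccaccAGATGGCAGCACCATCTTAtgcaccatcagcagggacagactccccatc

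The Spo11KO PRDM9 peaks at these 4 sites were 1039, 866, 775 and 671 bp wide. The best 19 bp in Herc2 scored 7.79 bits and did not pass as a match, whereas the other 3 sites had scores of 17.3, 13.98 and 20.9 bits and passed. The site near Ctsm was also covered by a peak of Prdm9KO mice, which lack the protein. Herc2 encodes a large ubiquitin ligase. The starts of Ctsm and Sh3gl3 lay 89409 and 52846 bp from the sites named by them.

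PRDM9 peaks of Spo11KO mice, in which breaks are not made, lay over 57 of the 4319 member sites (1.32%, 1.001 to 1.71), where 6.67% of all 14774 B6 DMC1 sites had one. The share was 51.5% at PRDM9-positive sites (848 of 1648, 49.0 to 53.9) and 0.111% at unmarked sites (9 of 8115, 0.0507 to 0.210). The 3 intervals do not overlap, so the member sites stood between the other groups and far nearer to the unmarked sites. The low share at member sites relative to PRDM9-positive sites follows in part from the rule, because the Spo11KO and the B6 lists come from the same antibody and the rule had removed every site with a B6 peak. The 57 peaks were 57 distinct intervals of the 1070 in the Spo11KO list, and 0 of them touched a B6 PRDM9 peak outside the centre. The B6 list as deposited holds peaks specific to B6. Peaks that the study removed from it were not used here and could lie over member sites, which was not tested. In the B6 list, 0 of its 2601 peaks overlapped the RJ2 PRDM9 list and 2 the Prdm9KO list, whereas in the Spo11KO list 25 peaks overlapped the RJ2 list and 13 the Prdm9KO list. Only 1 of the 57 peaks, that near Ctsm, was among these. With it left out, an alternative added after the data were seen, the share of member sites was 1.297% (0.981 to 1.68).

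The 57 member sites with a Spo11KO peak lay on 20 chromosomes, of which 34 were intergenic, 22 in introns and 1 in another exon, and 0 lay within 1 kb of a transcription start (a count of 0 among 57 allows up to 6.27%). Their Spo11KO peaks had a median width of 393 bp (271 to 1039), against 480 bp at PRDM9-positive sites (238 to 1504). The DMC1 intervals of the 57 had a median of 1974 bp, against 1824 bp at the 4262 member sites without a Spo11KO peak, and their H3K4me3 intervals had medians of 1119 and 852 bp in the same order. A Dom2 match was found in 42 of the 57 (73.7%, 60.3 to 84.5), against 2525 of the 4262 (59.2%, 57.8 to 60.7). The intervals of these shares overlap narrowly.

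The share of member sites with a Spo11KO peak was higher at wide intervals. In 5 classes of DMC1 width with nearly equal numbers of B6 sites (878 to 1548, 1550 to 1684, 1686 to 1822, 1824 to 2000 and 2002 to 4634 bp) it was 0.498, 0.404, 0.805, 1.69 and 2.37%, with 2, 3, 8, 19 and 25 sites. The widest class (1.54 to 3.48%) lies above the next to narrowest (0.0835 to 1.18%), while the interval of the narrowest (0.0603 to 1.79%) overlaps that of the widest. At unmarked sites of the same 5 classes the share was 0.164, 0, 0, 0.154 and 0.383%, and at PRDM9-positive sites 33.3, 33.0, 37.3, 44.9 and 60.9%. In the widest class the members' interval does not overlap that of unmarked sites (0.0790 to 1.11%), and the same holds in the other classes from 1686 bp up. In the classes up to 1684 bp, with 2 and 3 member sites, the intervals of member and unmarked sites overlap. The order of the groups by value was the same in each class, although widths within a class can still differ between groups. By width of the H3K4me3 interval (195 to 629, 630 to 770, 771 to 926, 927 to 1124 and 1125 to 5548 bp) the members' share was 0.462, 0.811, 0.580, 1.499 and 3.25%. The last of these, 28 sites of 861 (2.17 to 4.67%), lies above each of the first 3 and overlaps the next to last (0.801 to 2.55%).

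**Figure D1:**
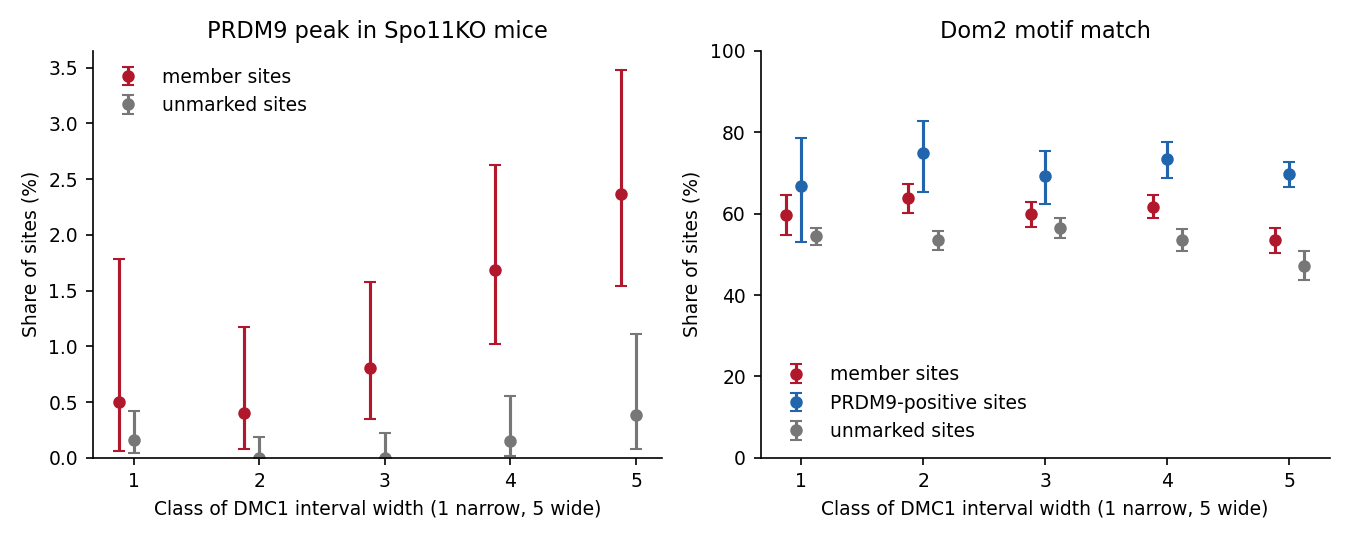
Share of sites with a Spo11KO PRDM9 peak (left) and with a Dom2 match (right), in percent, by class of DMC1 interval width, with 95% Clopper-Pearson bars. Among member sites the Spo11KO share was 0.498% in the narrowest and 2.37% in the widest class, above the value at unmarked sites in each class, while the match share was 53.5% in the widest class and between 59.7 and 63.8% in the others.

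Member sites carried the Dom2 motif more often than unmarked sites and less often than PRDM9-positive sites. A match lay in the central 400 bp of 2567 member sites (59.4%, 58.0 to 60.9), where 57.6% of all B6 DMC1 sites had one. PRDM9-positive sites had 70.7% (68.4 to 72.9), and since they trained the matrix this value is favoured. Unmarked sites had 53.7% (52.6 to 54.8). In the windows moved 10 kb from member sites it was 4.71% (4.27 to 5.18), and 4.44% of 638911 regular 400 bp windows over the genome matched. With a matrix trained on the odd-numbered chromosomes and applied to the remaining ones, the shares were 54.7% at member sites, 65.2% at PRDM9-positive sites and 51.8% at unmarked sites. The order was the same, but member and unmarked sites lay closer together than with the full matrix. No intervals were computed for these shares, so whether member and unmarked sites differ there was not tested. The Cst matrix, learned in the same way at RJ2 PRDM9 peaks, matched 4.82% of member sites (4.20 to 5.50).

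**Figure D2:**
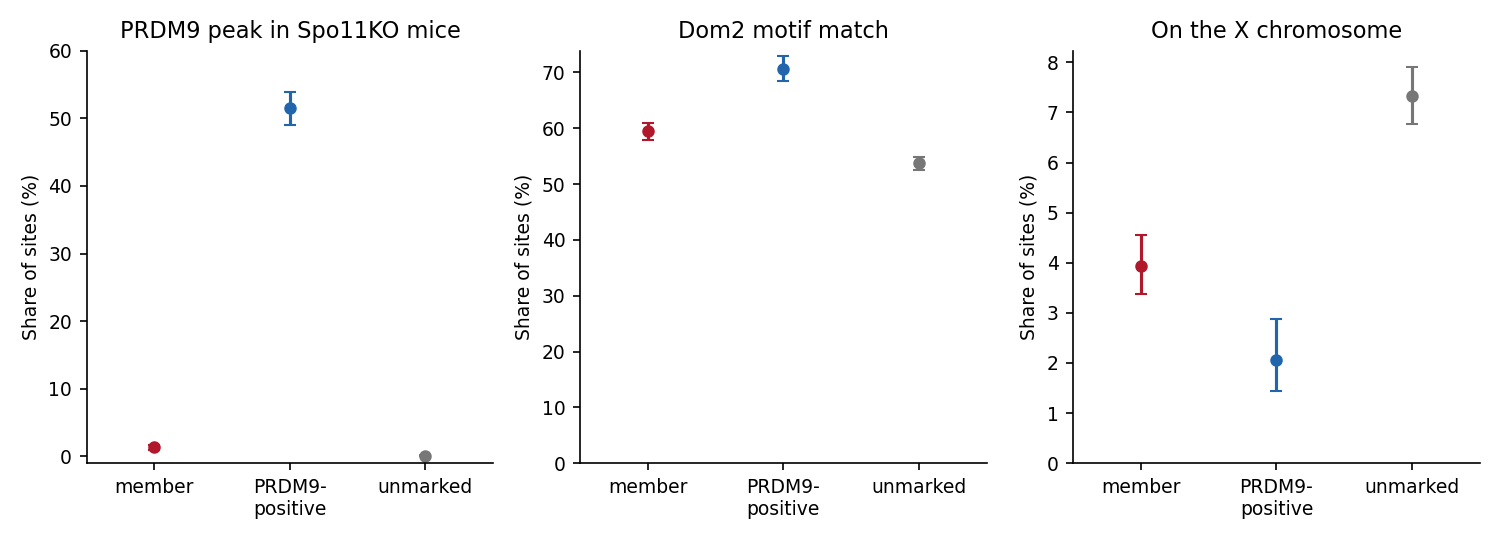
Share of sites, in percent, with a Spo11KO PRDM9 peak (left), with a Dom2 match (middle) and on the X chromosome (right) at member, PRDM9-positive and unmarked sites, with 95% Clopper-Pearson bars and an axis for each panel. Member sites lay at 1.32, 59.4 and 3.94%, between the other groups in each panel.

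The words inside the motif differed between the groups. The 8 bp word from which the matrix was grown, GCAGCACC (GGTGCTGC on the other strand), lay in the central 400 bp of 5.35% of member sites (4.70 to 6.06), against 12.3% of PRDM9-positive sites (10.7 to 13.9) and 6.999% of unmarked sites (6.45 to 7.58). For this word the order of member and unmarked sites was thus the reverse of that for the matrix, and the intervals do not overlap. It lay in 1.18% of the genome windows. A set of 4 related words was searched after this value was seen, each also on its other strand. GTAGCACC lay in 3.24% of member sites (2.73 to 3.81), against 9.10% of PRDM9-positive sites (7.76 to 10.6), 3.65% of unmarked sites (3.25 to 4.08) and 0.473% of genome windows. GCAGCAGC had overlapping intervals in the 3 groups, with 9.38% of member sites (8.52 to 10.3), against 9.77% of PRDM9-positive sites (8.38 to 11.3), 10.6% of unmarked sites (9.91 to 11.3) and 2.20% of genome windows. GCAGCATC went the other way, with 8.54% of member sites (7.73 to 9.42), against 6.37% of PRDM9-positive sites (5.24 to 7.66), 8.11% of unmarked sites (7.52 to 8.72) and 1.38% of genome windows. GCAGCAAC lay in 2.32% of member sites (1.89 to 2.81), against 4.19% of PRDM9-positive sites (3.27 to 5.27), 3.14% of unmarked sites (2.77 to 3.55) and 0.998% of genome windows. The words share their middle letters and can overlap, so 1 stretch can count for more than 1 of them. The Runx1 match printed above, for example, holds both GCAGCAGC and GCAGCACC. GCAGCACC, GTAGCACC and GCAGCAAC were thus less common at member sites than at PRDM9-positive sites, with intervals that do not overlap, and GCAGCATC was more common. GCAGCACC had been picked as the most enriched word at the B6 PRDM9 peaks over DMC1 centres. Its value at PRDM9-positive sites is therefore favoured, and its lower share at member sites follows in part from that choice.

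The groups also differed in the letters of the best match, counted from 1 at the 5′ end of the consensus. Letter T at motif position 12 stood in 21.6% of matched member sites, against 10.4% of PRDM9-positive and 17.6% of unmarked sites. Letter A at position 12 stood in 7.79%, 13.6% and 9.13% of the groups in that order and letter C there in 19.4%, 22.9% and 19.3%. Letter T stood at position 15 in 53.3%, 40.3% and 47.8% of the groups in that order. C at position 13 stood in 100% of the matches of all 3 groups. This follows largely from the matrix, in which C has a frequency of 0.999 there, so that other letters can hardly pass. The letters of PRDM9-positive sites shaped the matrix, so these shares are a description.

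Matches lay close to the centre of the DMC1 interval. At matched member sites the best match had a median distance of 59.5 bp from the centre, against 58.5 bp at PRDM9-positive and 61.5 bp at unmarked sites, and 1109 of the 2567 matches (43.2%) were within 50 bp. In 50 bp on either side of the centre, member sites had 14.5 and 14.8 matches per 100 sites, PRDM9-positive sites 16.6 and 19.4, and unmarked sites 14.5 and 13.6. From 250 to 300 bp away the members' value was 1.37 before the centre and 0.857 after it, and from 300 to 350 bp after it 1.32. The strand was evenly used, with 1322 of the 2567 matches on the plus strand.

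**Figure D3:**
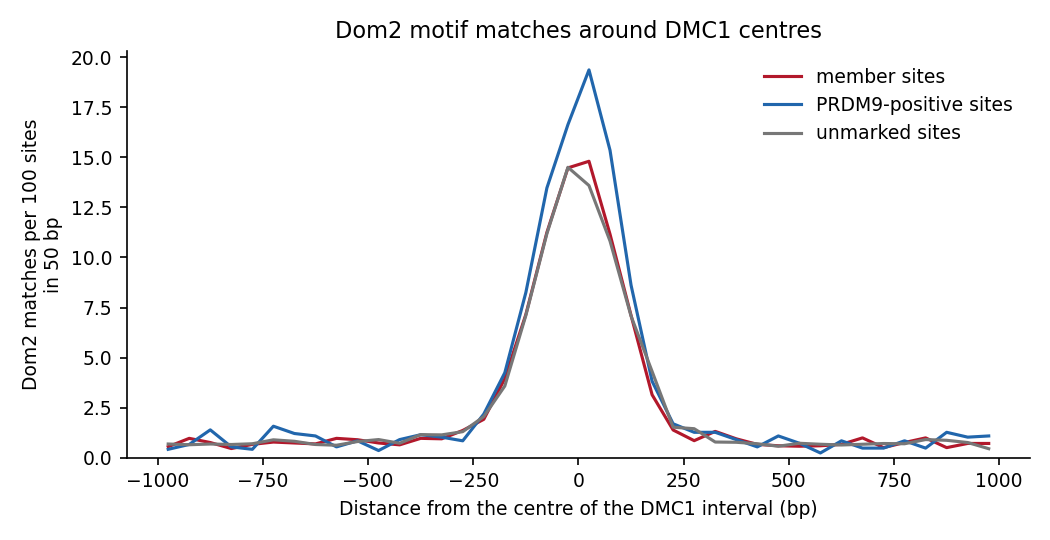
Dom2 matches per 100 sites in steps of 50 bp (vertical axis) by distance from the centre of the DMC1 interval (horizontal axis, bp) at member, PRDM9-positive and unmarked sites. Each line peaks at the centre, where member sites reached 14.8 matches per 100 sites.

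H3K4me3 and DMC1 intervals lay around the match almost evenly. This was measured at the 1244 member sites whose score passed the level reached by 1% of moved windows, and at 733 such PRDM9-positive sites. The match was searched only in the central 400 bp, at most 190 bp from the DMC1 centre, and the rule asks for H3K4me3 there. Near evenness, and cover over the match, therefore follow in large part from the search and the rule. The H3K4me3 interval reached 448 bp before and 456 bp after the match (medians, in the direction of the motif as printed), against 592 and 614 bp at PRDM9-positive sites. It was longer before the match at 48.9% of member sites (46.1 to 51.7) and 46.9% of PRDM9-positive sites (43.3 to 50.6). The DMC1 interval reached 896 and 908 bp at member sites, against 1002 and 1020 bp at PRDM9-positive sites. It was longer before the match at 46.8% of member sites (44.0 to 49.6), an interval that ends below 50%, and at 43.8% of PRDM9-positive sites (40.2 to 47.5). The medians before and after the match lay furthest apart for H3K4me3 at PRDM9-positive sites, at 592 and 614 bp. At 500 bp before and after the match, H3K4me3 covered 31.4 and 35.7% of member sites, against 66.6 and 66.3% of PRDM9-positive sites, while over the match itself it covered 94.2 and 97.4% of the groups in that order.

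**Figure D4:**
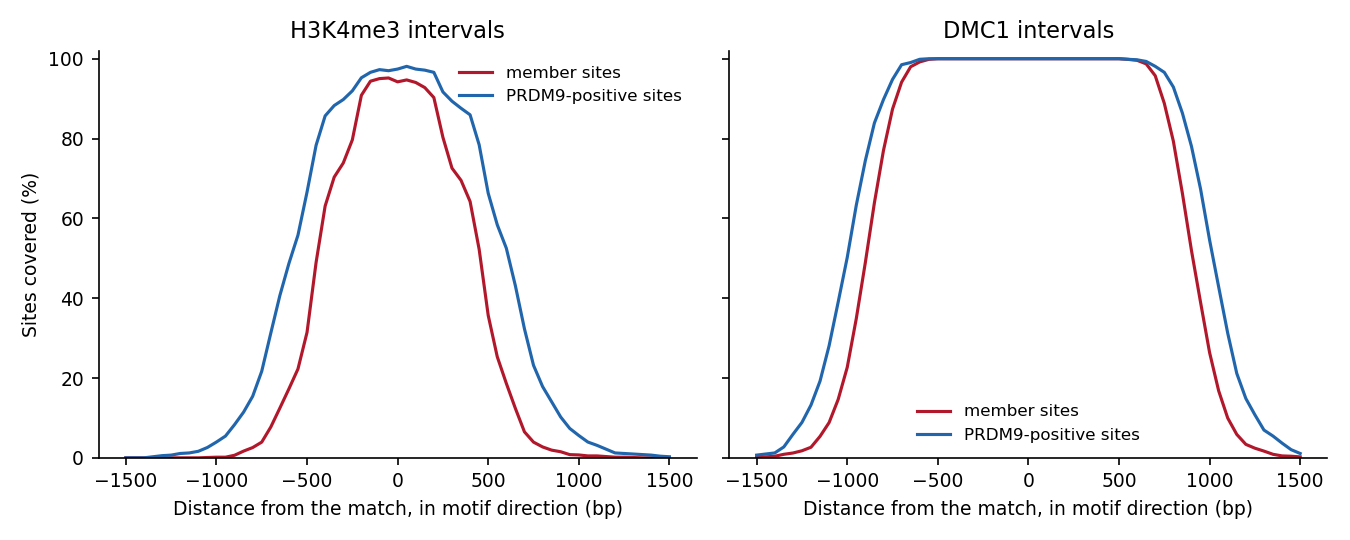
Share of sites covered (percent) by the H3K4me3 interval (left) and the DMC1 interval (right) by distance from the motif match in the direction of the motif (bp), at 1244 member and 733 PRDM9-positive sites. H3K4me3 spanned less at member sites, with 31.4% covered at 500 bp before the match, against 66.6% at PRDM9-positive sites.

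The widths of the intervals that chose the sites are given as a description. DMC1 intervals of member sites had a median of 1826 bp (1000 to 4634), against 2034 bp at PRDM9-positive sites and 1660 bp at unmarked sites. Their H3K4me3 intervals, 4319 distinct ones, had a median of 853 bp (195 to 5548), against 1200 bp at PRDM9-positive sites (291 to 2861). The distance between H3K4me3 and DMC1 centres had a median of 99 bp at member sites, against 92 bp at PRDM9-positive sites. Among all B6 DMC1 sites, the share that were member sites was 13.4% in the narrowest class of DMC1 width (12.2 to 14.7), and 25.2, 33.8, 38.1 and 35.99% in the wider ones. By the width of their H3K4me3, the match share of member sites was 57.7% in the narrowest class (54.4 to 61.1) and 61.4% in the widest (58.1 to 64.7), with intervals that overlap. By DMC1 width it was lowest in the widest class, at 53.5% (50.4 to 56.5), against 61.7% in the next (58.8 to 64.6).

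The 5 widest DMC1 intervals of member sites lay in an intron of Ammecr1 on the X chromosome (chrX:139330138-139334771, 4634 bp), in Pip5k1b (chr19:24455414-24459783, 4370 bp), in Kctd12b on the X chromosome (chrX:150125336-150129515, 4180 bp), in Abcb11 (chr2:69102758-69106745, 3988 bp) and in an intergenic stretch near Ccdc50 (chr16:27450889-27454858, 3970 bp). The start of Ccdc50 lay 62820 bp from the site named by it. Abcb11 encodes the bile salt export pump and Pip5k1b a phosphatidylinositol phosphate kinase. Of these 5 sites, those in Kctd12b and Abcb11 had a Dom2 match and none had a Spo11KO peak.

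The widest H3K4me3 interval of a member site, 5548 bp, lay at an intergenic DMC1 interval near 3110070M22Rik (chr13:120277007-120280380). It stood apart from the next, of 2265 bp, and its central 400 bp also met those of an RJ2 DMC1 site. The next 4 lay in Shank2 (chr7:151362709-151364730, 2265 bp), in an intergenic stretch whose nearest start is that of Adam6a (chr12:114937141-114939846, 2198 bp), in Acat1 (chr9:53392282-53394373, 2190 bp) and in Fgf14 (chr14:124621829-124624104, 2162 bp). Acat1, a mitochondrial acetyl-CoA acetyltransferase, was the only one of the 5 with a Spo11KO peak. The sites near Adam6a and in Acat1 and Fgf14 had a Dom2 match.

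At the edge of the rule the values ran on without a gap. The 3 member sites with the least H3K4me3 in their central 400 bp had 1, 2 and 3 bp covered (chr10:126689670-126692159, chr2:19989932-19992045 and chr7:67547287-67549548). The 3 unmarked sites whose B6-specific H3K4me3 came closest to the central 400 bp lay 2, 3 and 3 bp away from it (chr8:4098246-4100661, chr4:49852058-49854047 and chr8:59455449-59457142). The member sites with the nearest B6 PRDM9 peak had it 110, 168 and 312 bp outside the central 400 bp (chr14:71169210-71172429, chr1:95568777-95571226 and chr6:145372549-145375010), and the PRDM9-positive sites with the least PRDM9 overlap had 7, 8 and 16 bp (chr17:76453428-76455087, chr2:147862645-147864708 and chr2:34639117-34641354). Few sites were so near the edge. There were 12 member sites with 20 bp or less covered and 14 unmarked sites with H3K4me3 within 20 bp, while 3159 member sites had all 400 bp covered. The nearest B6 PRDM9 peak lay a median of 310931 bp away, with 5 member sites within 1000 bp of one.

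Member sites lay mostly in introns and between genes. By the position of the DMC1 centre in GENCODE version 1 for this build, 2133 were in introns (49.4%, 47.9 to 50.9), 1868 intergenic (43.3%, 41.8 to 44.7), 150 within 1 kb of a transcription start (3.47%, 2.95 to 4.06), 77 in untranslated exons and 91 in other exons. PRDM9-positive sites had 45.3% in introns (42.8 to 47.7) and 4.25% near a start (3.33 to 5.34), and unmarked sites 44.0% in introns (42.9 to 45.1) and 3.18% near a start (2.81 to 3.58). The intron share of member sites was above both, with intervals that do not overlap, and the shares near a start overlapped. The rule left out common H3K4me3, which is the kind of mark that promoters carry, so a low share near starts follows in part from it. GC content of the central 400 bp had a median of 42.5% at member sites, against 44.0% at PRDM9-positive and 43.3% at unmarked sites.

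The X chromosome held few member sites. They were 170 of 4319 (3.94%, 3.38 to 4.56), against 34 of the PRDM9-positive sites (2.06%, 1.43 to 2.87) and 594 of the unmarked sites (7.32%, 6.76 to 7.91). Of all 835 DMC1 sites on the X, 20.4% were member sites (17.7 to 23.3), against 29.8% of the 13928 on autosomes (29.0 to 30.5). On single autosomes the share ran between 24.4% on chromosome 10 and 34.7% on chromosome 11. Among DMC1 sites with B6-specific H3K4me3, by contrast, the member share was higher on the X, at 170 of 204 (83.3%, 77.5 to 88.2), against 4147 of 5761 on autosomes (72.0%, 70.8 to 73.1). DMC1 intervals of member sites were wider on the X, with a median of 2014 bp, against 1818 bp on autosomes, while their H3K4me3 intervals were narrower, at 738 bp, against 859 bp. At PRDM9-positive sites the DMC1 medians were 2379 bp on the X and 2026 bp on autosomes, and at unmarked sites 1690 and 1658 bp. The X accounted for 1.24% of member sites in the narrowest class of DMC1 width (0.405 to 2.88) and for 8.25% in the widest (6.66 to 10.1). The Y chromosome held 2 member sites of 11 DMC1 sites.

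**Figure D5:**
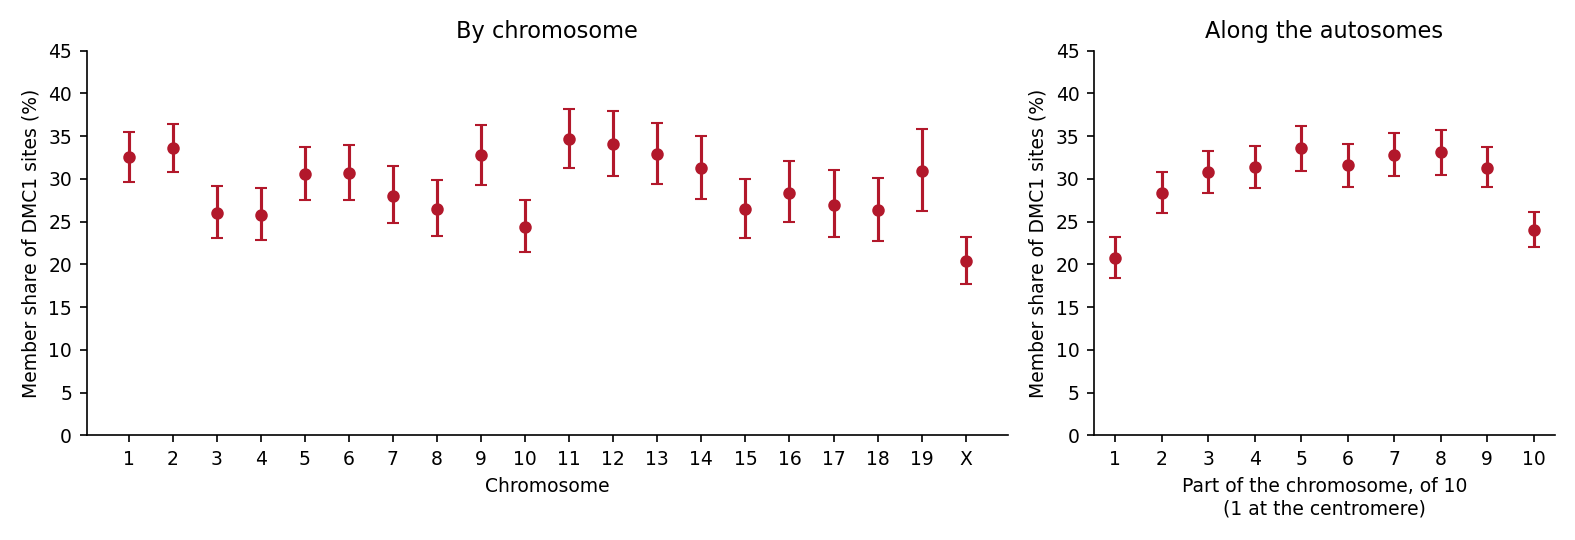
Member sites as a share of B6 DMC1 sites (percent), by chromosome without the Y (left) and by 10 equal parts of each autosome counted from the centromere (right), with 95% Clopper-Pearson bars. The X chromosome had 20.4%, below each autosome, and the parts at the 2 ends of the autosomes 20.7 and 24.0%.

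Along the autosomes, member sites were a smaller share of DMC1 sites at both ends. Each autosome was divided into 10 equal parts. In the part next to the centromere they were 20.7% (18.4 to 23.2) and in the last part 24.0% (22.0 to 26.2), against 28.4 to 33.6% in the 8 parts between. The last 10 Mb held 7.33% of autosomal member sites (6.56 to 8.17), against 6.57% of PRDM9-positive sites (5.41 to 7.89) and 11.2% of unmarked sites (10.46 to 11.9). In the first 13 Mb of the chromosomes there were 6.41% of member sites (5.69 to 7.20), against 5.02% of PRDM9-positive (4.01 to 6.20) and 10.6% of unmarked sites (9.92 to 11.3). At both ends the intervals of member and PRDM9-positive sites overlapped, and both lay below that of unmarked sites.

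Neighbouring member sites on a chromosome lay a median of 354106 bp apart. The closest pairs had their centres 1715 bp apart in introns of Bcl2l1 (chr2:152643050-152644655 and chr2:152644987-152646148) and 1723 bp apart in Ylpm1 (chr12:86367207-86369054 and chr12:86369192-86370515), each with its own H3K4me3 interval. Bcl2l1 encodes an inhibitor of apoptosis. The fullest window of 1 Mb began at chr5:90421024 and held 10 member sites of 14 DMC1 sites, of which 6 had a Dom2 match, and 0 PRDM9-positive sites. It covers Ankrd17, the albumin family genes Alb, Afp and Afm, and chemokine genes such as Cxcl1, Cxcl2, Cxcl5, Pf4 and Ppbp. Within Ankrd17 alone, a gene of 139 kb, all 6 DMC1 sites were member sites. The most member sites in an annotated gene span were in the one given for Fgfr2, with 10 of 26 DMC1 sites over 3009 kb. The median span of protein-coding genes was 15427 bp. A span as long as that of Fgfr2 can take in other genes, so these sites need not lie in Fgfr2 itself, which was not tested. Exoc4, which encodes a subunit of the exocyst, held 8 member sites of 11 DMC1 sites over 725 kb, and Macrod2 7 of 13 over 1998 kb. These genes were picked after the counts were seen.

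Genes of meiotic recombination were looked at as a list. Of 54 genes, 53 were matched in the annotation and 5 of these held a member site in their span (9.43%), against 1894 of 22367 protein-coding genes (8.47%), although the listed genes were longer (median span 33448 bp, against 15427 bp). Among them were Atm, the kinase that limits the number of breaks, Tex11, a crossover factor on the X chromosome, Ccdc36, a factor needed to make breaks, and Cdyl, a chromodomain protein. Their sequences are shown because these sites lie in genes of the process that the marks belong to.
Tex11 intron, minus strand, chrX:98074647-98074725: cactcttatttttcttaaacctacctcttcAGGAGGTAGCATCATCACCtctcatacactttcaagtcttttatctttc
Cdyl intron, minus strand, chr13:35873912-35873990: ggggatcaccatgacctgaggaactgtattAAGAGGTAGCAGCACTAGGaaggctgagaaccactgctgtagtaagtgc
Ccdc36 exon, minus strand, chr9:108307190-108307268: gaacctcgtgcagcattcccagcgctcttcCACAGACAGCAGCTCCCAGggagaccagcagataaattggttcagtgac
Atm intron, minus strand, chr9:53306869-53306947: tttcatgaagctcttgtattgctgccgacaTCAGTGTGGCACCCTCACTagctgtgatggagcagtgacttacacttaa

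The capitals are again the best-scoring 19 bp. Scores were 16.4, 14.2, 12.8 and 5.76 bits in the order printed, and the site in Atm did not pass as a match. None of these 4 had a Spo11KO peak. Of the genes that name classical mouse hotspots, Vwa7 (chr17:35156984-35158447) and Esrrg (chr1:189907183-189908780) each had 1 member site within 50 kb, in an intron of the gene itself. Neither of these had a Dom2 match.

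Marks of the other mice were rare at member sites. Peaks of Prdm9KO mice lay over 4 of 4319 (0.0926%, 0.0252 to 0.237), against 14 of all 14774 B6 DMC1 sites (0.0948%), among them sites in Nlrp1c-ps (chr11:71057523-71059124) and in an intergenic stretch (chr14:81700980-81703111), and RJ2 PRDM9 peaks over 5 (0.116%, 0.0376 to 0.270), against 0.460% of all B6 DMC1 sites, among them a site in Snx29 (chr16:11704055-11705678). An RJ2 DMC1 interval overlapped the central 400 bp of 13 member sites (0.301%, 0.160 to 0.514), against 5 PRDM9-positive sites (0.303%) and 155 unmarked sites (1.91%, 1.62 to 2.23), and 4 member sites met an RJ2 DMC1 site centre to centre. RJ2-specific H3K4me3 lay over 2 member sites (0.0463%), 1 PRDM9-positive site (0.0607%) and 99 unmarked sites (1.22%). The rule asks for H3K4me3 found in B6 and not in RJ2 mice at member and PRDM9-positive sites, but not at unmarked sites. Low shares of RJ2 marks at member sites therefore follow in part from the rule.

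The same rule applied to the RJ2 lists gave the counterpart of the member sites under the Cst allele. It chose 5906 of 15195 RJ2 DMC1 sites (38.9%, 38.1 to 39.7), with 6387 PRDM9-positive sites (42.0%) and 2207 unmarked sites (14.5%). The RJ2 counterparts had a Cst match in 65.1% (63.8 to 66.3), against 79.5% of RJ2 PRDM9-positive sites (78.4 to 80.4) and 58.2% of RJ2 unmarked sites (56.1 to 60.3), the order seen for Dom2 in B6. Since RJ2 PRDM9-positive sites trained the Cst matrix, their value is favoured here too. The RJ2 counterparts had a Dom2 match in 4.45% (3.94 to 5.01), against 59.4% of the B6 member sites. The median DMC1 width was 1634 bp at the RJ2 counterparts, 1796 bp at RJ2 PRDM9-positive sites and 1560 bp at RJ2 unmarked sites.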

How the data were processed

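The data are ChIP-seq peak lists of mouse testis. Of 32 libraries, 13 stand behind the 9 lists used, and H3K36me3 and input libraries were not analysed here. The authors mapped reads to mm9 (the submitters' processing notes name CASAVA, Bowtie, Bowtie2, BWA and MACS2), called peaks, and kept PRDM9 and DMC1 peaks reproducible between replicates. By their account, PRDM9 peaks that overlapped peaks of Prdm9KO mice were removed, and peaks shared between strains were taken out of the B6 PRDM9 list. The deposited files hold interval positions (other columns carry no value), so depth per library is not in them and precision is given as Clopper-Pearson intervals.

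Overlaps, widths and sequences were computed with Python 3.11.15, numpy 2.4.6 and scipy 1.17.1 on the NCBIM37 sequence (mm9) and GENCODE version 1. Positions are printed counted from 1. Matrices were grown from an 8 bp word over the central 200 bp of PRDM9 peaks in 10 rounds. The code was tested on simulated data with planted motifs and known overlaps. Sites named are the 5 widest DMC1 and H3K4me3 intervals, the 5 best motif scores, the 5 widest Spo11KO peaks, up to 3 sites with each mark of other mice, sites at listed genes, the 2 closest pairs, the fullest 1 Mb window and the 3 sites on each side of each limit. The rule, the lists and the named groups were chosen with earlier results of these data known. Alternatives changed the central window, the H3K4me3 overlap, the PRDM9 distance, the chromosomes used, the motif search and the distance to a start. A few sites chosen by this rule are not reported here.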

Additional observations from a re-analysis of the deposited data

How the results depend on the processing

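Of 33 alternatives, 28 gave values within the counting interval or within 1.5 times the main count, and 5 moved beyond it. Each value is a single count or share of member sites, so it has no direction that could reverse. The number of member sites ran between 4106 and 4314, the Spo11KO share between 1.23 and 1.40%, and the X share between 3.604 and 3.99%. The share with a Dom2 match was 28.8% with the threshold passed by 1% of moved windows, 51.5% with only the central 200 bp searched, 54.7% with the matrix from odd-numbered chromosomes (2134 sites scored), and 61.3% with windows moved 20 kb. The share near a transcription start was 7.04% within 2 kb. With the strict threshold PRDM9-positive sites had 44.5% and unmarked sites 26.0%, and with the central 200 bp 58.0 and 47.7%, so the order of the groups stayed. No paired analysis was possible because replicates were pooled into single lists without values for each, and no replicate could be left out for the same reason. Absence from a peak list means below the authors' threshold, not unbound, and with no read depth in the files the limit of detection at single sites is unknown. H3K4me3 came from 1 library per strain.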
